A study of Homo sapiens with 24 samples.

Results

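The data were examined for 6 lineage-inappropriate factors of Hodgkin cells, genes that antagonize the B cell programme or belong to other blood lineages, after knockdown (KD) of NF-κB subunits. The genes were ID2, MSC, GATA3, TBX21, CSF1R and TCF7. They were taken by symbol, as the transcript clusters to which the platform annotation gave exactly 1 symbol. Of the 6 genes, 5 had such a cluster (1 each), out of 19460 clusters with a single symbol and 33297 in all. No cluster carried TCF7 as its single symbol in the annotation used, so TCF7 itself was not analysed here and its pathway is described through its relatives and cofactors. The cells were L1236, an established Hodgkin lymphoma line of B cell origin, and expression was measured in 2 experiments with 24 arrays of the Affymetrix type Human Gene 1.0 ST.

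In experiment 1, p50/RelA KD (6 arrays) combined siRNAs, short double-stranded RNAs by which cells destroy an mRNA of the same sequence, against NFKB1 (1 µM, 3 days) and RELA (500 nM, 2 days), and was set against 6 arrays of non-targeting siRNA, called control 1. In experiment 2, p52/RelB KD (6 arrays) combined siRNAs against NFKB2 (500 nM, 2 days) and RELB (1 µM, 3 days), and was set against 6 arrays of non-targeting siRNA of its own, called control 2. For the non-targeting siRNAs no dose was found in the labels or methods. All cells took up the siRNA passively in low-serum delivery medium and were collected 1 day after normal medium was restored. Every group held 2 siRNA sequences in each of 3 biological replicates. All arrays come from 1 cell line. Neither labels nor methods say if the samples within a replicate were grown apart, and the p-values refer to the spread between these arrays, which may be technical.

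Hodgkin cells derive from B cells but have lost much of the B cell programme and express factors of T cells, natural killer (NK) cells and myeloid cells. ID2 is a helix-loop-helix protein that binds E proteins such as E2A (TCF3) and keeps them off DNA, and MSC (musculin, also called ABF-1) is a helix-loop-helix repressor that pairs with E2A. GATA3 and TBX21 (T-bet) are the lead transcription factors of T helper 2 cells and of T helper 1 and NK cells. CSF1R is the receptor tyrosine kinase for the macrophage growth factors CSF1 and IL34, and TCF7 (TCF-1) is a T cell factor that works with β-catenin. p50 and RelA form the dimer of canonical NF-κB signalling and p52 and RelB that of non-canonical signalling.

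The siRNAs define what was withdrawn in each KD, so their sequences are shown, 5′ to 3′, as the study lists them. It gives a pair for each target without saying which belongs to sequence 1 and which to sequence 2.
NFKB1 siRNA: ccaaaguauaaagauauua
NFKB1 siRNA: ggcucauguuuacagcuuu
RELA siRNA: cuuccaaguuccuauagaa
RELA siRNA: ggauugaggagaaacguaa
NFKB2 siRNA: ucauugagcagauagucua
NFKB2 siRNA: cugucaagaucuguaacua
RELB siRNA: guaggauucggaaaagauu
RELB siRNA: uggagaucaucgacgagua

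Promoter windows show where a κB motif, the DNA element bound by NF-κB dimers, could be looked for. RefSeq promoter windows (assembly GRCh38.p14, 250 bases before to 50 after a start) were at hand for ID2 (1 window), GATA3 (6), TBX21 (1), CSF1R (2) and TCF7 (2), and there was none for MSC. Searched on both strands, the κB consensus matched in 1 of these 12 windows, against 7.729% of all 35116 windows. The looser pattern GGGNNNNNCC, which contains every match to the consensus, was present in 11 of the 12 windows and in 58.668% of all windows. The 1 match lay in a GATA3 window on the plus strand of chromosome 10 (chr10:8045083-8045382), with its first base at -19, and it is printed because GATA3 is the gene whose difference passed the test in the comparisons that follow. The capitals mark the match, which is a match of letters and not a measured binding site.
GATA3 window: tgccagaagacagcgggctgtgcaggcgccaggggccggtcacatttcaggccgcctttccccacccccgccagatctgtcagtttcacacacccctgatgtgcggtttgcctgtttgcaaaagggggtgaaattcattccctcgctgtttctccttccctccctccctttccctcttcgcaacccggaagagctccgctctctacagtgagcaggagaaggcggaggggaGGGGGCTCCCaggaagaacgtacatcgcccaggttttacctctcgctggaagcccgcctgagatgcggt

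The mRNA of each siRNA target was lower in its KD, to different degrees. In p50/RelA KD, NFKB1 stood at 26.5% of control 1 and RELA at 38.1%. In p52/RelB KD, NFKB2 stood at 39.4% of control 2, but RELB only at 82.0%. These are mRNA values from the arrays, and the study shows depletion of the subunit proteins separately, by western blot. Targets of the other KD moved as well, since NFKB2 fell to 87.8% of control 1 in p50/RelA KD (limma adjusted p = 0.0457) and NFKB1 rose to 110.6% of control 2 in p52/RelB KD (limma adjusted p = 0.0374). Values are log2 RMA values (background-corrected, quantile-normalized and summarized over the probes of a cluster), and the experiments were taken as normalized apart, since array medians were 6.94 to 6.99 in experiment 1 and 7.39 to 7.51 in experiment 2, so levels are compared only within an experiment. In each experiment 1 array correlated less with its group than the others did: control 1, sequence 2, replicate 2 (mean r 0.993) and p52/RelB KD, sequence 2, replicate 3 (mean r 0.986). Differences are on the log2 scale (KD over control) and carry the standard error (SE) of the limma fit, in which replicates were blocked. A gene counted as called where KD and control differed by 10% or more and the p, adjusted over all clusters tested by Benjamini-Hochberg, was below 0.05.

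Of the 5 measured genes, 0 were called in p50/RelA KD and 1, GATA3, was called in p52/RelB KD. All 5 passed the filter on low values in both experiments, with no array below 6. Passing it does not show that a gene is expressed. In control 1 and control 2 TBX21 averaged 7.83 and 7.94 and CSF1R 7.78 and 7.61, not far above the array medians. The stromal marker COL1A1 averaged 8.05 in control 1. Whether TBX21 and CSF1R exceed background was not tested. For the background, p50/RelA KD called 1.07% of 14672 clusters (0.825% lower, 0.245% higher), and p52/RelB KD called 9.68% of 16101 (5.75% lower, 3.93% higher). With 5 genes, 1 call beside a background of 9.68% says nothing about the group as a whole. Without the array of experiment 2 that stood apart, the count was 2 of 5, with GATA3 lower and ID2 higher, and 0 of 5 remained the count in p50/RelA KD without the control array that stood apart. Leaving out the array of experiment 2 took the calls over all clusters from 926 to 1153 lower and from 633 to 1158 higher.

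**Figure D1:**
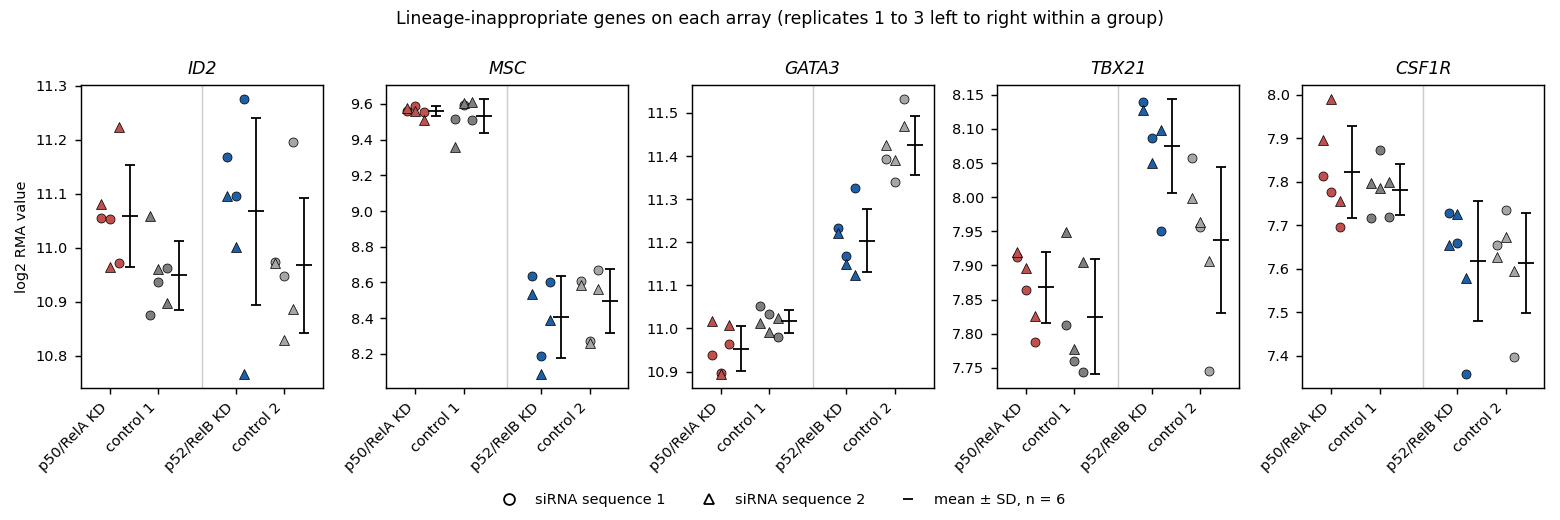
Log2 RMA value of each gene (y axis, scales differ between panels) on every array, by group on the x axis, as circles (siRNA sequence 1) or triangles (sequence 2), with replicates 1 to 3 from left to right and bars for mean and SD of 6 arrays. The 6 p52/RelB KD arrays of GATA3 lie between 11.13 and 11.33, all below the control 2 arrays at 11.34 to 11.53, whereas the groups overlap for the other genes. Levels are not comparable across the vertical line.

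GATA3, the T helper 2 factor, was lower in p52/RelB KD. Its log2 value was 11.13 at the lowest, 11.19 at the median and 11.33 at the highest of 6 p52/RelB KD arrays, against 11.34, 11.41 and 11.53 in control 2. The groups did not overlap, since all 6 KD arrays lay below all 6 control arrays, although the gap between the nearest arrays was small. GATA3 fell by 0.22 ± 0.04 (SE, n = 6 each), to 85.8% of control (95% confidence interval 80.7% to 91.2%; limma adjusted p = 0.00414). It ranked 555 by p and 1083 by size of difference among the 16101 clusters, so its change was one of many and not among the largest.

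The fall of GATA3 was seen in every replicate and with both siRNA sequences. Within replicates 1, 2 and 3 the difference of p52/RelB KD from control 2 was -0.18, -0.21 and -0.28. With sequence 1 it averaged -0.18 ± 0.01 and with sequence 2 -0.26 ± 0.10 (SD over 3 replicates). The wider spread of sequence 2 came with 1 array, the p52/RelB KD array of replicate 3 that stood apart, at -0.38, while the other 2 differences of that sequence were -0.19 and -0.22. Without that array GATA3 fell by 0.19 (limma adjusted p = 0.000441). By scan batch, GATA3 differed by -0.19 in replicates 1 and 2, scanned together, and by -0.28 in replicate 3. The difference between the sequences in p52/RelB KD was 0.08 ± 0.06 (limma adjusted p = 0.550).

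The direction of the GATA3 difference held under all 15 alternatives, but the call did not. Changes of block, filter, prior or test, averaged sequences and clusters with several symbols left its estimate at -0.22. These could not alter the direction. Leaving out arrays, taking 1 sequence or normalizing further gave -0.26 to -0.18. The call was lost without replicate 1 (-0.24, limma adjusted p = 0.0743), without replicate 2 (-0.23, limma adjusted p = 0.0936) and when the sequences were averaged within each replicate (-0.22, limma adjusted p = 0.0619), and it was kept without replicate 3 (-0.19, limma adjusted p = 0.0034).

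GATA3 in p50/RelA KD had 10.89, 10.95 and 11.02 as lowest, median and highest value, against 10.98, 11.02 and 11.05 in control 1. Of the 6 KD arrays, 4 lay below all controls and 2 lay among them. The difference was -0.06 ± 0.03 (SE, n = 6 each; 95% interval 91.0% to 100.6% of control; limma adjusted p = 0.568), which did not pass. Set directly against each other, the p52/RelB effect on GATA3 minus the p50/RelA effect was -0.16 ± 0.05 (95% interval -0.26 to -0.06; limma adjusted p = 0.0714). A difference between the KDs was therefore not established for GATA3 after adjustment. That test called 4.35% of 14647 clusters, and 0 of the 5 genes.

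TBX21, the T helper 1 and NK cell factor, came close to both thresholds in p52/RelB KD without passing. Its values were 7.95, 8.09 and 8.14 (lowest, median, highest) in p52/RelB KD, against 7.74, 7.96 and 8.06 in control 2. All 6 KD arrays were above the control mean of their own replicate, and 4 of them lay above every control array. The difference was 0.14 ± 0.04 (SE, n = 6 each), or 109.99% of control (95% interval 103.3% to 117.1%), with a limma adjusted p of 0.0569. By replicate it was 0.11, 0.11 and 0.20, and by sequence 0.12 ± 0.01 and 0.15 ± 0.10 (SD over 3 replicates). The adjusted p was below the threshold without the array that stood apart (0.0322), after a further quantile normalization (0.0405) and in the methods' t-test on replicate-adjusted values (0.0176), but in each case the difference stayed under 10%.

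TBX21 in p50/RelA KD had 7.79, 7.88 and 7.92, against 7.74, 7.80 and 7.95 in control 1, and the groups overlapped throughout. The difference was 0.04 ± 0.04 (SE, n = 6 each; 95% interval 96.9% to 109.5% of control; limma adjusted p = 0.831). The p52/RelB effect minus the p50/RelA effect was 0.09 ± 0.06 (limma adjusted p = 0.435).

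ID2, the inhibitor of E proteins, had the largest difference between the siRNA sequences of the 5 genes in p52/RelB KD. In p52/RelB KD its values were 10.77, 11.10 and 11.28 (lowest, median, highest), against 10.83, 10.96 and 11.20 in control 2. The KD group held both the highest and the lowest array of the experiment. With sequence 1 the difference from control was 0.19, 0.21 and 0.24 in replicates 1, 2 and 3, and with sequence 2 it was 0.12, 0.11 and -0.27. The last value is that of the array that stood apart. Over all arrays the difference was 0.10 ± 0.08 (SE, n = 6 each; 95% interval 94.6% to 121.4% of control; limma adjusted p = 0.513). Without that array it was 0.18 ± 0.05 and called (limma adjusted p = 0.0257), and with sequence 1 alone it was 0.21 ± 0.06 (limma adjusted p = 0.0374), whereas sequence 2 alone gave -0.01 ± 0.09 (limma adjusted p = 0.935).

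The test of sequence 1 minus sequence 2 within p52/RelB KD gave 0.23 ± 0.10 for ID2 and 0.14 ± 0.05 for MSC (limma adjusted p = 0.506 for both). Neither passed, and no cluster was called between sequences in p52/RelB KD, p50/RelA KD, control 2 or control 1 by limma, although 1536, 514, 160 and 333 had an unadjusted p below 0.05. In replicate 3 of experiment 2 the sequences also stood apart in the control group, where ID2 had 11.20 with sequence 1 and 10.89 with sequence 2, beside 11.28 and 10.77 in p52/RelB KD.

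ID2 in p50/RelA KD had 10.97, 11.05 and 11.22, against 10.88, 10.95 and 11.06 in control 1. All 6 KD arrays were above the control mean of their replicate, and 2 lay above every control. The difference was 0.11 ± 0.05 (SE, n = 6 each; 95% interval 100.3% to 116.1% of control), but the limma adjusted p was 0.449. The differences in p52/RelB KD and p50/RelA KD were of similar size, and their difference was -0.01 ± 0.10, with a 95% interval of -0.22 to 0.20 (limma adjusted p = 0.976).

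MSC, the E2A-binding repressor, varied more between replicates than between KD and control in experiment 2. In p52/RelB KD its values were 8.09, 8.46 and 8.64 (lowest, median, highest), against 8.26, 8.57 and 8.67 in control 2. The low values of both groups belonged to replicate 2, whose 4 arrays averaged 8.20, while those of replicate 1 averaged 8.59 and those of replicate 3 averaged 8.56. Within replicates 1, 2 and 3 the KD difference was -0.01, -0.13 and -0.12. With the replicate as a block it was -0.09 ± 0.05 (SE, n = 6 each; 95% interval 87.6% to 100.9% of control; limma adjusted p = 0.293), and -0.06 ± 0.04 without the array that stood apart (limma adjusted p = 0.333). Its values in p50/RelA KD were 9.51, 9.56 and 9.59, against 9.36, 9.55 and 9.61 in control 1, with a difference of 0.03 ± 0.04 (SE, n = 6 each; 95% interval 95.7% to 108.4% of control; limma adjusted p = 0.918). That difference was 0.13 in replicate 1 and -0.03 in each of replicates 2 and 3. The p52/RelB effect minus the p50/RelA effect was -0.11 ± 0.06 (limma adjusted p = 0.373).

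CSF1R, the macrophage growth factor receptor, had the differences nearest to 0 in p52/RelB KD. Its values were 7.36, 7.66 and 7.73 (lowest, median, highest) in p52/RelB KD, against 7.40, 7.64 and 7.73 in control 2, and the groups overlapped almost completely. The difference was 0.00 ± 0.05 (SE, n = 6 each; 95% interval 93.2% to 107.9% of control; limma adjusted p = 0.968), and -0.02 ± 0.04 without the array that stood apart (limma adjusted p = 0.811). In p50/RelA KD it had 7.70, 7.80 and 7.99, against 7.72, 7.79 and 7.87 in control 1, a difference of 0.04 ± 0.05 (SE, n = 6 each; 95% interval 96.1% to 110.0% of control; limma adjusted p = 0.865). There, sequence 1 averaged -0.02 ± 0.07 and sequence 2 averaged 0.10 ± 0.09 (SD over 3 replicates). The p52/RelB effect minus the p50/RelA effect was -0.04 ± 0.07 (limma adjusted p = 0.858).

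**Figure D2:**
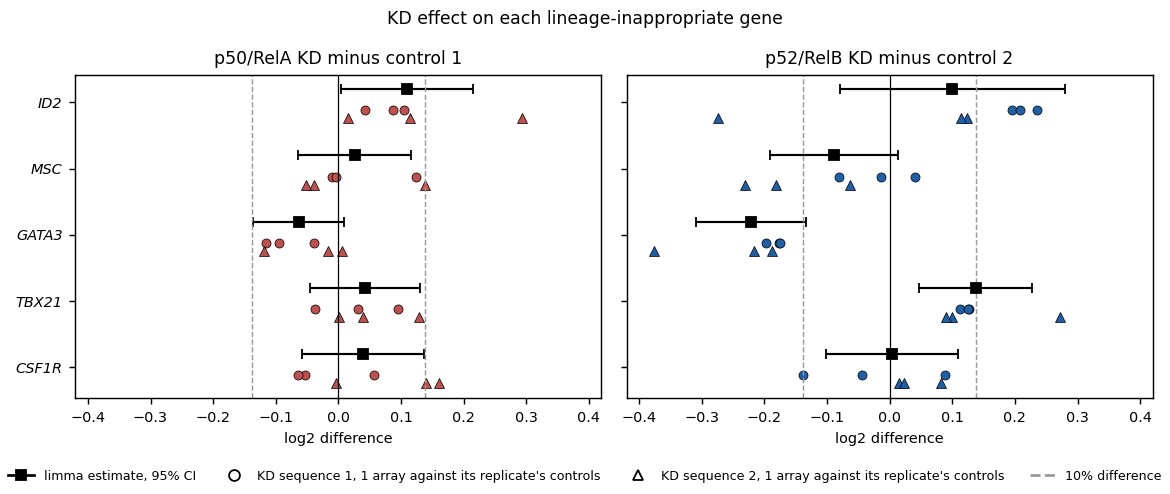
Log2 difference, KD minus control, of each gene for p50/RelA KD (left) and p52/RelB KD (right), with squares and bars for the limma estimate and its 95% confidence interval, circles and triangles for each KD array of sequence 1 and 2 against the mean of both control arrays of its replicate, and dashed lines at a difference of 10%. GATA3 in p52/RelB KD has all 6 points below -0.17 and an interval of -0.31 to -0.13, and the ID2 point at -0.27 is the array that stood apart.

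The genes most like each factor were found by Pearson's r over the 24 arrays, with each value taken minus the mean of its experiment and replicate, among 14647 clusters. These correlations are descriptions, since they were ranked to find the highest, and the arrays share the KD, the replicate and the normalization. For GATA3 the 3 highest were REL (r = 0.971), which encodes the NF-κB subunit c-Rel, RAB3IP (0.963), an exchange factor for Rab GTPases, and TFDP2 (0.952), a partner of E2F factors. All 3 fell with GATA3 in p52/RelB KD, with log2 differences of -0.57 ± 0.07 for REL, -0.38 ± 0.07 for RAB3IP and -0.51 ± 0.06 for TFDP2 (limma adjusted p = 0.000308, 0.00325 and 0.000152). The genes were picked by correlations that include the KD differences. Differences in the direction of GATA3 therefore follow in part from the picking and are not separate results. The differences in p50/RelA KD were -0.10 ± 0.04 for REL and -0.11 ± 0.04 for RAB3IP, which did not pass (limma adjusted p = 0.298 and 0.277), and -0.15 ± 0.03 for TFDP2, which did (limma adjusted p = 0.0417).

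GATA3 and REL varied together inside the groups too, but all 3 genes were picked by values that include this variation. The correlations inside the groups therefore follow in part from the picking and are not separate results. With the group means taken out as well, r was 0.934 over the 12 arrays of experiment 2 and 0.731 over those of experiment 1, and over all arrays it was 0.790 without the 2 arrays that stood apart. For RAB3IP these values were 0.915, 0.634 and 0.741. For TFDP2 they were 0.924, -0.082 and 0.516. For REL, picked with the KD differences left in, the p52/RelB effect minus the p50/RelA effect was -0.47 ± 0.08 (limma adjusted p = 0.00135). With the group means left in, Spearman's rho was 0.963 over the 24 arrays, and Pearson's r was 0.953 without the 2 arrays farthest from the median of GATA3. Between GATA3 and TBX21 the correlation was -0.815 (Spearman's rho -0.746), and -0.676 without the 2 arrays farthest from the median of GATA3. With the group means taken out it was -0.830 in experiment 2 and -0.251 in experiment 1, and over all arrays it was -0.462 without the 2 arrays that stood apart. This pair was the strongest of the 10 pairs among the 5 genes. With group means left in, MSC had 0.604 with GATA3 and -0.525 with TBX21. The p52/RelB KD array that stood apart had an interquartile range of 3.16 over all clusters, against 3.33 to 3.42 on the others of its group. Whether that shaped the correlation was not tested.

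**Figure D3:**
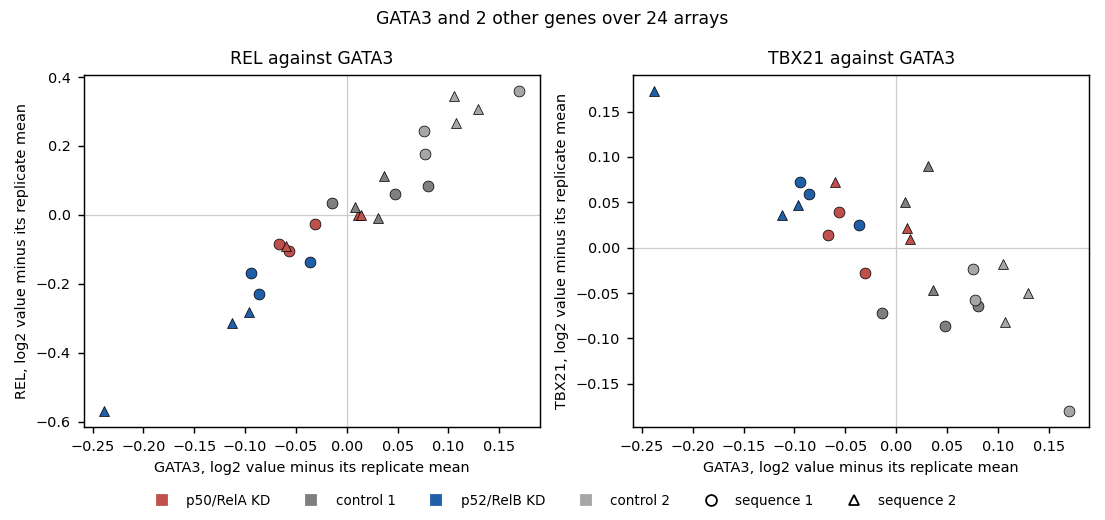
REL (left) and TBX21 (right) against GATA3 on 24 arrays, each log2 value minus the mean of its experiment and replicate, with colour for the group and circles and triangles for siRNA sequence 1 and 2. REL rises with GATA3 (r = 0.971) and TBX21 is lower where GATA3 is higher (r = -0.815), and the leftmost point is the array of p52/RelB KD that stood apart. Group means are left in, so both r include the KD differences. Of the 10 pairs among the 5 genes, GATA3 and TBX21 had the strongest r.

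The other factors had lower best correlations. For ID2 they were ZCCHC2 (0.881), NAMPT (0.881), the enzyme of NAD salvage, and ZCCHC17 (0.851), for MSC they were IL1RAP (0.838), the accessory chain of the interleukin 1 receptor, SLC35F5 (0.837) and ACTL6A (0.815), an actin-related chromatin remodelling subunit. For TBX21 they were NDUFA7 (0.873), a subunit of respiratory complex I, PITX1 (0.868), a homeobox factor, and the small nucleolar RNA gene SNORA80A (0.865). For CSF1R they were SLC2A4RG (0.806), CNIH2 (0.761) and FAM209A (0.742). Of these 12 genes, PITX1 rose in p52/RelB KD (0.21 ± 0.04, limma adjusted p = 0.00284) and 1 of the 2 clusters of SLC35F5 fell (-0.32 ± 0.09, limma adjusted p = 0.0411), while the other had -0.10 ± 0.07 (limma adjusted p = 0.416). These genes, too, were picked by correlations that include the KD differences.

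A list of 6 genes held those for E proteins, the partners of ID2 and MSC, and those for relatives of ID2. Of these, 1 fell (TCF3) and 2 rose (ID1 and ID3) in p52/RelB KD, where 9.68% of all clusters were called. The other 3, TCF4, TCF12 and ID4, did not pass, and the list had a median difference of 0.07 beside 0.02 over all tested clusters. TCF3, which encodes E2A, had 10.24, 10.36 and 10.38 (lowest, median, highest) in p52/RelB KD, against 10.41, 10.59 and 10.70 in control 2. All 6 KD arrays lay below all controls, and TCF3 fell by 0.23 ± 0.04, to 85.1% of control (SE, n = 6 each; limma adjusted p = 0.00414). ID1, a relative of ID2 with the same mode of action, had 7.18, 7.47 and 7.68 in p52/RelB KD, against 7.01, 7.03 and 7.22 in control 2. It rose by 0.37 ± 0.06, to 129.5% of control (limma adjusted p = 0.00238). ID3, a further relative, rose by 0.22 ± 0.05 (limma adjusted p = 0.0161). The E protein gene TCF4 had -0.15 ± 0.05 (limma adjusted p = 0.105) and TCF12 had 0.03 ± 0.03 (limma adjusted p = 0.581), and the ID2 relative ID4 had 0.11 ± 0.05 (limma adjusted p = 0.261).

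For p50/RelA KD, which called 1.07% of all clusters, 0 of the 5 E protein and ID genes tested were called. Their median difference was -0.003 beside 0.001 over all tested clusters. There TCF3 had -0.07 ± 0.04 (limma adjusted p = 0.612) and ID1 had 0.04 ± 0.04 (limma adjusted p = 0.829). The p52/RelB effect minus the p50/RelA effect passed the test for ID1 (0.33 ± 0.07, limma adjusted p = 0.0101) and not for TCF3 (-0.16 ± 0.06, limma adjusted p = 0.105) or ID3 (0.13 ± 0.08, limma adjusted p = 0.435).

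Among 17 tested partners and targets of GATA3 and TBX21 in T helper and NK cells, 1 fell and 3 rose in p52/RelB KD, and 1 fell in p50/RelA KD. Over all clusters 9.68% were called in p52/RelB KD and 1.07% in p50/RelA KD, and the list was not tested against these shares. CCR4, a chemokine receptor of T helper 2 cells, had 7.64, 7.98 and 8.12 in p52/RelB KD, against 8.26, 8.36 and 8.54 in control 2. All 6 KD arrays were below all controls, and CCR4 fell by 0.44 ± 0.08, to 73.5% of control (SE, n = 6 each; limma adjusted p = 0.00466). CXCR3, a chemokine receptor of T helper 1 cells and a known target of T-bet, had 8.63, 8.83 and 9.14 in p52/RelB KD, against 8.26, 8.49 and 8.69 in control 2. It rose by 0.37 ± 0.07, to 129.5% of control (limma adjusted p = 0.00389), with 5 of 6 KD arrays above all controls. The cytokine receptor chains IL4R (0.24 ± 0.04, limma adjusted p = 0.00105) and IL12RB1 (0.15 ± 0.03, limma adjusted p = 0.0109) rose as well, each with 6 of 6 KD arrays above all controls. IL4R serves the T helper 2 cytokine IL4 and IL12RB1 the T helper 1 cytokine IL12. The p52/RelB effect minus the p50/RelA effect did not pass for CCR4, CXCR3, IL4R or IL12RB1 (limma adjusted p = 0.0689, 0.117, 0.0592 and 0.252).

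IL13 was the gene of this list that fell in p50/RelA KD. It encodes a cytokine under the control of GATA3 in T helper 2 cells and a growth factor of Hodgkin cells. It had 7.22, 7.44 and 7.60 in p50/RelA KD, against 7.45, 7.80 and 8.02 in control 1, and fell by 0.35 ± 0.05 (limma adjusted p = 0.00849). In p52/RelB KD its difference was 0.05 ± 0.12 (limma adjusted p = 0.828). The median difference of the list was 0.02 in p52/RelB KD, the same as over all tested clusters, and 0.03 in p50/RelA KD. IFNG, IL4 and IL5 lay below 6 on every array and were not tested.

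The closest relatives of the factors had 2 calls in p52/RelB KD, both higher, among 9 tested, where 9.68% of all clusters were called. EOMES, a T-box factor like TBX21, rose by 0.17 ± 0.04 (limma adjusted p = 0.0174), with values of 11.75 to 12.03 in p52/RelB KD, against 11.66 to 11.87 in control 2. LEF1, a DNA-binding partner of β-catenin like TCF7, rose by 0.19 ± 0.03 (limma adjusted p = 0.00381), with values of 10.53 to 10.65 in p52/RelB KD, all above those of control 2 at 10.34 to 10.51. The p52/RelB effect minus the p50/RelA effect did not pass for EOMES or LEF1 (limma adjusted p = 0.0874 and 0.166). The GATA factor genes GATA1 (0.03 ± 0.05, limma adjusted p = 0.722) and GATA2 (0.00 ± 0.06, limma adjusted p = 0.981) did not pass. The 5 cofactors of TCF7 and β-catenin, all tested, had 0 calls in either KD. In p50/RelA KD 0 of 9 relatives tested were called, where 1.07% of all clusters were called.

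Of the 2 ligands of CSF1R, CSF1 rose in p52/RelB KD and IL34 did not pass in p52/RelB KD (0.02 ± 0.06, limma adjusted p = 0.903) or p50/RelA KD (-0.05 ± 0.05, limma adjusted p = 0.861). CSF1 had 11.48, 11.68 and 11.82 in p52/RelB KD, against 11.14, 11.28 and 11.49 in control 2. It rose by 0.35 ± 0.04, to 127.3% of control (SE, n = 6 each; limma adjusted p = 0.000383). In p50/RelA KD it had 10.80, 10.88 and 10.98, against 10.88, 11.11 and 11.14 in control 1, a difference of -0.19 ± 0.05 that did not pass (limma adjusted p = 0.155). For CSF1 the p52/RelB effect minus the p50/RelA effect was 0.54 ± 0.07 (limma adjusted p = 9.48e-05). RUNX1, a transcription factor of CSF1R in myeloid cells, rose by 0.33 ± 0.06 in p52/RelB KD (limma adjusted p = 0.00505), where 6 of 6 KD arrays lay above all controls, and had -0.02 ± 0.04 in p50/RelA KD (limma adjusted p = 0.957). In all, 2 of 10 ligands, regulators and myeloid receptors were called in p52/RelB KD, both higher, with a median of 0.05, and 0 of 8 were called in p50/RelA KD, with a median of -0.05. The shares of all clusters called were 9.68% in p52/RelB KD and 1.07% in p50/RelA KD.

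**Figure D4:**
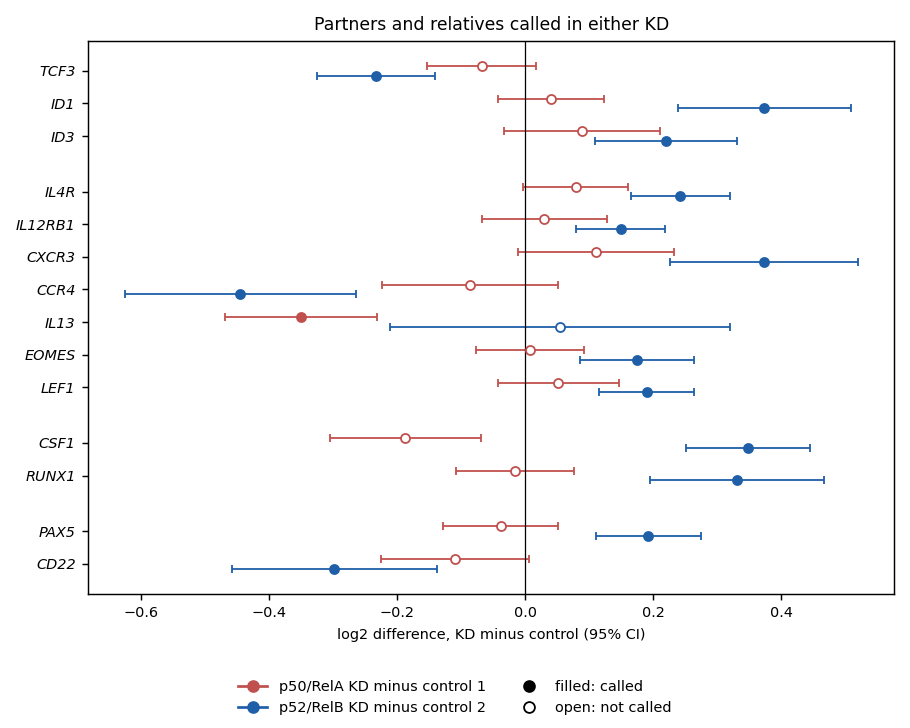
Log2 difference, KD minus control, with 95% confidence intervals, of partners, relatives and B cell genes called in either KD, in red for p50/RelA KD and blue for p52/RelB KD, filled where called. TCF3 (-0.23), CCR4 (-0.44) and CD22 (-0.30) are lower and ID1 (0.37), CXCR3 (0.37) and CSF1 (0.35) higher in p52/RelB KD, while IL13 (-0.35) is called in p50/RelA KD.

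The B cell programme, much of which Hodgkin cells have lost, had 2 calls among 9 genes tested in p52/RelB KD, where 9.68% of all clusters were called. PAX5, the B cell commitment factor that in mouse B cells represses Csf1r, had 10.97, 11.16 and 11.21 in p52/RelB KD, against 10.83, 10.96 and 11.03 in control 2. It rose by 0.19 ± 0.04 (SE, n = 6 each; limma adjusted p = 0.00646). CD22, a B cell surface lectin, fell by 0.30 ± 0.07 (limma adjusted p = 0.0228), with 3 of 6 KD arrays below all controls. In p50/RelA KD 0 of 9 were called, and PAX5 had -0.04 ± 0.04 (limma adjusted p = 0.857). For PAX5 the p52/RelB effect minus the p50/RelA effect was 0.23 ± 0.05 (limma adjusted p = 0.0151). For CD22 it was -0.19 ± 0.09 and did not pass (limma adjusted p = 0.326). MS4A1, which encodes CD20, lay below 6 on every array.

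Of 6 Hodgkin cell markers, all above 6 on every array, TRAF1 fell in p52/RelB KD (-0.23 ± 0.06, limma adjusted p = 0.0326) and the chemokine gene CCL17 fell in p50/RelA KD (-0.44 ± 0.04, limma adjusted p = 0.00023). For this and the other marker lists, the shares of all clusters called were 9.68% in p52/RelB KD and 1.07% in p50/RelA KD. The T and NK cell markers, including the CD3 chains, had 0 calls in either KD, with 2 of 10 passing the filter in experiment 1 and 8 of 10 in experiment 2, and CD3G and KLRD1 below 6 on nearly all arrays. The cut of 6 was the same while array medians were higher in experiment 2. Such counts therefore do not compare marker levels between the experiments. The mean log2 value over that list was 6.09 to 6.56 in p52/RelB KD, against 6.10 to 6.23 in control 2, and the 6.56 belonged to the array that stood apart, the next being 6.24. Of the myeloid markers 0 were called in either KD, with 3 and 5 of the 8 measured passing the filter in experiments 1 and 2, and LYZ and S100A8 below 6 on every array. Their mean was 6.24 to 6.64 in p52/RelB KD, against 6.23 to 6.36 in control 2, again with the highest value on the same array. Among the stromal and epithelial markers 0 were called in p50/RelA KD, and PECAM1, which B cells can also express, rose in p52/RelB KD by 1 of its 2 clusters (0.19 ± 0.04, limma adjusted p = 0.00498). The other cluster, below 6 on 10 of 12 arrays and not tested, averaged 5.58 in p52/RelB KD and 5.91 in control 2.

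Each call of a partner, relative or B cell gene held without the array that stood apart in its experiment. These calls were not tried with a replicate left out or with averaged sequences. GATA3 lost its call without replicate 1, without replicate 2 and with averaged sequences. In p52/RelB KD BLNK (0.17, limma adjusted p = 0.0023), CEBPA (0.15, limma adjusted p = 0.00602), ITGAM (0.14, limma adjusted p = 0.0323), IL2RB (-0.22, limma adjusted p = 0.0482) and TNFRSF8 (-0.15, limma adjusted p = 0.00855) were called in addition, 1 in each of their lists. Over all clusters the calls also grew, from 926 to 1153 lower and from 633 to 1158 higher.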

How the data were processed

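Total RNA of 24 samples of L1236 cells was hybridized to Affymetrix Human Gene 1.0 ST arrays. The values deposited are log2 values, which the authors made with RMA in the package oligo. No version was found for it. They adjusted values for covariates that the methods do not name before a two-sample t-test, and the replicates still differed in the deposited values. RMA understates large differences and does not say which probes exceed background. The median SE of a KD effect was 0.0476 in experiment 1 and 0.0536 in experiment 2, the precision that 12 arrays allowed. Platform annotation gave 1 symbol for 19460 of 33297 clusters, several for 1754, and did not list 12083. Current symbols came from a gene table by gene ID (19429 found, 31 left as they were). Clusters with several symbols were neither tested nor named.

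Differences within each experiment were fitted in R 4.3.3 with the lmFit and eBayes functions of limma 3.58.1. Replicates entered as blocks and siRNA sequences were pooled. Clusters below 6 in 50% or more of the 12 arrays were left out. A call needed a Benjamini-Hochberg adjusted p below 0.05 over all clusters tested and a change of 10% or more (a log2 value of 0.14), as in the study's methods. The effects of the KDs were compared in 1 fit over 24 arrays, where every replicate in either experiment had its own block, and the sequences within each group. Fits were tested on simulated data. Deviations of KD and control means of one replicate correlated in replicates 1, 2 and 3 at 0.448, 0.195 and 0.251 for experiment 1, and 0.574, 0.268 and 0.377 for experiment 2, each over 0.1, so the replicates were treated as paired. Scans of experiment 1 followed the replicates, and in experiment 2 replicate 3 was scanned apart from replicates 1 and 2.

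Alternatives left out the block, single replicates or single arrays, blocked by scan, took 1 sequence at a time, averaged sequences, changed the filter, normalized further, used a trended prior or the methods' t-test, or admitted clusters with several symbols. Named are all 6 factors, every called gene of 10 lists (E proteins and IDs, relatives, B cell programme, T helper and NK partners, CSF1R context, TCF cofactors, and Hodgkin, T and NK, myeloid, and stromal and epithelial markers), the 3 genes most like each factor and the siRNA targets. Other genes named were chosen after their values were seen. The factors and lists were chosen with earlier results of these data known. Sequences are from RefSeq (GRCh38.p14) and the study's siRNA list.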

Additional observations from a re-analysis of the deposited data

Results flagged for a closer look

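No array of ID2, MSC, GATA3, TBX21 or CSF1R lay far from the others of its group by Dixon's test in 20 groups of 6 arrays. Of 69 partner and marker genes tested in both experiments, the p52/RelB effect minus the p50/RelA effect passed the limma test for 6, with log2 differences of 0.56 for CCL17, 0.54 for CSF1, -0.38 for IL2RB, 0.35 for RUNX1, 0.33 for ID1 and 0.23 for PAX5. The same test called 4.35% of all 14647 clusters. IL2RB, a chain of the interleukin 2 receptor, was itself called in neither KD, with -0.19 in p52/RelB KD and 0.19 in p50/RelA KD. For the 17 partner and marker genes called in a KD, single arrays lay far from the other 5 of their group in 8 of 68 groups, where chance flags about 1 in 20. They were for ID1 the p50/RelA KD array of sequence 2, replicate 1 (7.02) and the sequence 1, replicate 1 arrays of control 1 (6.78) and control 2 (7.22), for PAX5 sequence 1, replicate 3 of p52/RelB KD (10.97), for CSF1 the control 1 array of sequence 2, replicate 1 (10.88), for RUNX1 sequence 2, replicate 3 of p52/RelB KD (9.50), and for TRAF1 the p50/RelA KD array of sequence 2, replicate 1 (6.39) and sequence 2, replicate 3 of p52/RelB KD (7.18).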

How the results depend on the processing

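Of the 5 genes in 2 KDs, all 15 alternatives kept the direction of GATA3, TBX21 and ID2 in p50/RelA KD and of GATA3, TBX21 and MSC in p52/RelB KD. Alternatives that changed only the block, filter, prior or test, averaged sequences or admitted clusters with several symbols left the estimates unchanged. These could not alter a direction. With the replicate left out as a block the calls were 59 clusters, against 157 with it, in p50/RelA KD, 880 against 1559 in p52/RelB KD and 250 against 637 for the difference between the KD effects, and GATA3 in p52/RelB KD kept its call (-0.22, limma adjusted p = 0.0119). Leaving out 1 replicate or the array that stood apart gave 18 to 193 calls in p50/RelA KD and 443 to 2309 in p52/RelB KD, and leaving out 1 replicate gave 168 to 293 for the difference. Sequence 1 alone gave 25 and sequence 2 alone 11 calls in p50/RelA KD, and sequence 2 alone gave 865 in p52/RelB KD. Averaged sequences gave 45 calls in p50/RelA KD and 632 in p52/RelB KD. In p50/RelA KD no filter gave 103, a trended prior 259 and the methods' t-test 276 calls. Without both arrays that stood apart, an alternative chosen after seeing the data, 967 clusters differed between the KD effects.

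GATA3 in p52/RelB KD lost its call without replicate 1 or 2 and kept it without replicate 3 (-0.24 to -0.19), and lost it with averaged sequences (-0.22). Its difference between KD effects was called after further quantile normalization (-0.15, limma adjusted p = 0.0252). ID2 in p52/RelB KD had 0.070 to 0.18 with a replicate or the array that stood apart left out, and was called without replicate 3, without that array and with sequence 1 alone (0.21), while it had -0.013 with sequence 2 alone. Its difference between KD effects was -0.065 to 0.079 with 1 replicate left out, above 0 without replicate 3, and was also above 0 after further quantile normalization (0.0069) and without both arrays (0.060). MSC in p50/RelA KD had -0.027 to 0.053 with 1 replicate left out, below 0 without replicate 1. CSF1R had -0.020 in p50/RelA KD with sequence 1 alone. In p52/RelB KD it had -0.020 to 0.021 with a replicate or array left out, below 0 without replicate 1 (-0.020) and without the array that stood apart (-0.019), and it was below 0 with sequence 1 alone (-0.031) and after further quantile normalization (-0.0065). The cause of these changes was not tested. Further normalization moved the median of all clusters by 0.0073 in p50/RelA KD. With 6 arrays a group, precision is limited.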
